A study of Mus musculus with 18 samples.

Results

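The 39 genes described here encode Ppara, the nuclear receptor that fatty acids activate in liver, and proteins of fatty acid uptake, activation and oxidation, many of which are known targets of that receptor. They were chosen by name, as probes whose accession on the array maps to a listed symbol, and all 39 were among the 24808 genes tested, with 51 probes in all. The livers came from male C57BL/6 mice of 6 weeks in 3 groups of 8: mice given 330 mg/kg monocrotaline (MCT 330), mice given 270 mg/kg monocrotaline (MCT 270), and control mice given saline. Monocrotaline is a plant pyrrolizidine alkaloid that liver enzymes turn into a reactive pyrrole. The agents were given by stomach tube after 12 h without food, food was returned afterwards, and livers were taken at 48 h. All groups share that fast and the return of food, but the labels do not give how much each group ate. Whole liver RNA was hybridised to 3 single-colour arrays per group.

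The 9 arrays hold fewer than 9 independent livers. Replicates 2 and 3 of each group lay at the same slide position in different scans. The deviations of their repeated spots correlated at 0.735 in MCT 330, 0.920 in MCT 270 and 0.798 in control. Between arrays of different groups that correlation was 0.0357 to 0.536. These replicates differed by at most 0.750 (MCT 330), 0.560 (MCT 270) and 0.664 (control) times the noise between repeated spots in any brightness class. By that ratio and the shared position they were treated as scans of 1 array. Replicate 1 of MCT 330 differed from those scans by a median of 0.901 and 0.896 times the noise between repeated spots, with a highest ratio of 1.16 in a brightness class, and was averaged with them. Replicate 1 of the other groups stayed separate, at ratios of 1.69 to 3.34 in MCT 270 and 2.04 to 3.40 in control. The comparisons therefore rest on 1 MCT 330 sample, 2 MCT 270 samples and 2 control samples, and the spread of the MCT 330 sample was taken from the other groups. The MCT 330 arrays were scanned apart from the other 6, so dose and scan cannot be told apart there, whereas MCT 270 and control shared scans. Between 64.0% and 80.9% of probes lay well above background per array, and 37 of the 39 genes did so on all 9 arrays. All 9 tested hepatocyte markers, such as Alb, were well above background in every group.

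Hepatocytes take up fatty acids, bind them, and activate them to acyl-CoA. Carnitine then carries long chains into mitochondria, where repeated rounds of beta-oxidation release acetyl-CoA for ketone bodies and pass electrons through the electron transfer flavoprotein to the respiratory chain. Peroxisomes shorten very long chains, cytochrome P450 enzymes of the Cyp4a family oxidise the omega end, and thioesterases return acyl-CoA to the free acid. PPAR-alpha binds DNA with the retinoid X receptor, classically at a direct repeat of the half-site AGGTCA with 1 base between, and its targets in mouse liver are known to rise in fasting.

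Promoter sequences are shown because many of the genes moved together and share a known regulator. RefSeq promoters (GRCm38.p6, 250 bases before to 50 after the start) were found for 33 of the 39 genes. None was found for Cyp4a10, Cyp4a14, Vnn1, Crat, Decr1 and Acaa2, which all but Vnn1 were lower at MCT 330 and passed the test. The repeat AGGTCANAGGTCA, with at most 2 mismatches in its 12 fixed bases and on either strand, stood in 6 of 33 genes (18.2%), in 6 of 53 other genes of the pathway (11.3%), and in 1190 of 27025 genes over all promoters of that length (4.40%). The exact half-site AGGTCA alone stood in 24.2% of the 33 genes and 18.1% of all genes. A match with mismatches need not hold that exact half-site, and the promoters of Etfa and Slc25a20 held none. Of the 6 genes with a match, Etfa and Slc25a20 were lower at MCT 330 and passed the test, and Fabp1, Acot4, Cd36 and Plin2 did not pass. The whole promoter is printed for Fabp1 (chr6:71199629-71199928, + strand), which held the closest match with 1 mismatch, for Slc25a20 (chr9:108661886-108662185, + strand) and Etfa (chr9:55512194-55512493, - strand), and for Acot1 (chr12:84009252-84009551, + strand), which had the largest log2 fold change at MCT 270 and no match. Each runs 5′ to 3′ along its gene, with the match in capitals.
Fabp1: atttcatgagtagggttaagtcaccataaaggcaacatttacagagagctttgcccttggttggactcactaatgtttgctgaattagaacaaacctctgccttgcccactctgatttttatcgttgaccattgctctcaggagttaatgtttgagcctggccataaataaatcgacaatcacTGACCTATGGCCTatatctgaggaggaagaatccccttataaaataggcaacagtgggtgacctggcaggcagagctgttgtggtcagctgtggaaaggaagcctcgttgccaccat
Slc25a20: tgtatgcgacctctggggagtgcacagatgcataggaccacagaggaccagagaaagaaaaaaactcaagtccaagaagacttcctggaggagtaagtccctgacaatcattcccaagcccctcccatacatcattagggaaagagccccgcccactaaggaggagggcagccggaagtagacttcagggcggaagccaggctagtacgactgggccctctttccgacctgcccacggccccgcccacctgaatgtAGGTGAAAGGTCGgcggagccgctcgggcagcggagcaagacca
Etfa: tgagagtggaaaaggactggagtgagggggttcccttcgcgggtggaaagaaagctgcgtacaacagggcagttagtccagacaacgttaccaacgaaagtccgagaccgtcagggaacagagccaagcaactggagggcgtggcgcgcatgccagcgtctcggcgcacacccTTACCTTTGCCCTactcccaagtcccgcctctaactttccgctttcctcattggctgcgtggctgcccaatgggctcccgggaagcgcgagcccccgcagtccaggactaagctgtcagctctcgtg
Acot1: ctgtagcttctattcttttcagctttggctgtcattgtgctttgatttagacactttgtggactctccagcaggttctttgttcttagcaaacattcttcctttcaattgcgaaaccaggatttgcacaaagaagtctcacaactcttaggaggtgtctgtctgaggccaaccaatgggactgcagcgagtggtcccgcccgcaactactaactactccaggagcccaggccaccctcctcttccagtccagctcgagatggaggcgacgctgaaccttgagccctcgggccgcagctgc
The match began 67 bases before the start in Fabp1 and 77 bases before it in Etfa, both reading on the opposite strand, and 6 bases after it in Slc25a20. The matches of the other 3 genes, each with 2 mismatches, are shown with 10 bases on either side, from the Acot4 (chr12:84038129-84038428, + strand), Cd36 (chr5:17835847-17836146, - strand) and Plin2 (chr4:86670010-86670309, - strand) promoters.
Acot4: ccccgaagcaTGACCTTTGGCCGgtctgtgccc
Cd36: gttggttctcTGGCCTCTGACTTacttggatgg
Plin2: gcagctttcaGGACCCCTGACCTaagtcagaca
A match describes these letters only, and binding was not measured.

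The first comparison asks how these genes stood at the higher dose. At MCT 330, 24 of the 39 genes (61.5%) were lower than in control and passed the test (limma, Benjamini-Hochberg adjusted p under 0.05 over all genes), where 23.9% of all genes tested were called lower. None was called higher, against 9.46% of all genes. Of the 24, 20 were at least 2-fold lower. Most genes called at MCT 330 over the whole array, lower or higher, also differed at least 2-fold. That count therefore does not set the 39 genes apart. The median log2 fold change of the 39 genes was -1.14, against -0.25 over all genes. Scaling moved these values together: under quantile normalization the medians were -0.81 for the 39 genes and -0.05 for all genes, with 18 of the 39 called lower, against 17.2% of all genes lower and 12.4% higher. With normexp background correction before quantile normalization (normexp below), 26 of the 39 were called lower, against 15.7% of all genes lower and 14.7% higher. The MCT 330 sample lay below both control samples for 35 of the 39 genes, and for 54.3% of all genes, and below all 4 other samples for 33, against 47.2%. By role, 6 of 6 peroxisomal genes, 5 of 5 genes of the carnitine shuttle, 3 of 3 of electron transfer, 5 of 10 of mitochondrial beta-oxidation and 1 of 4 thioesterases were called lower, and the difference between roles was not tested. Without MCT 270 replicate 1, which leaves fewer samples to estimate the spread, 9 genes were lower (10.3% of all genes), and without MCT 270 replicates 2 and 3 also 9 (11.4%). Without control replicate 1, 30 were lower (21.9% of all genes) and Ucp2 was higher. Without control replicates 2 and 3, 15 were lower (6415 of all 25618 genes) and Acot2 was higher. With MCT 330 replicate 1 kept as a separate sample, 30 of 38 were lower (37.0% of all genes) and Acot2 was higher. Ppara, Acot1, Acsl1, Acaa2, Ehhadh, Acaa1b, Decr2 and Pex11a kept their call in all 20 alternatives run. In whole liver, fewer cells of a type and less RNA per cell cannot be told apart.

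**Figure D1:**
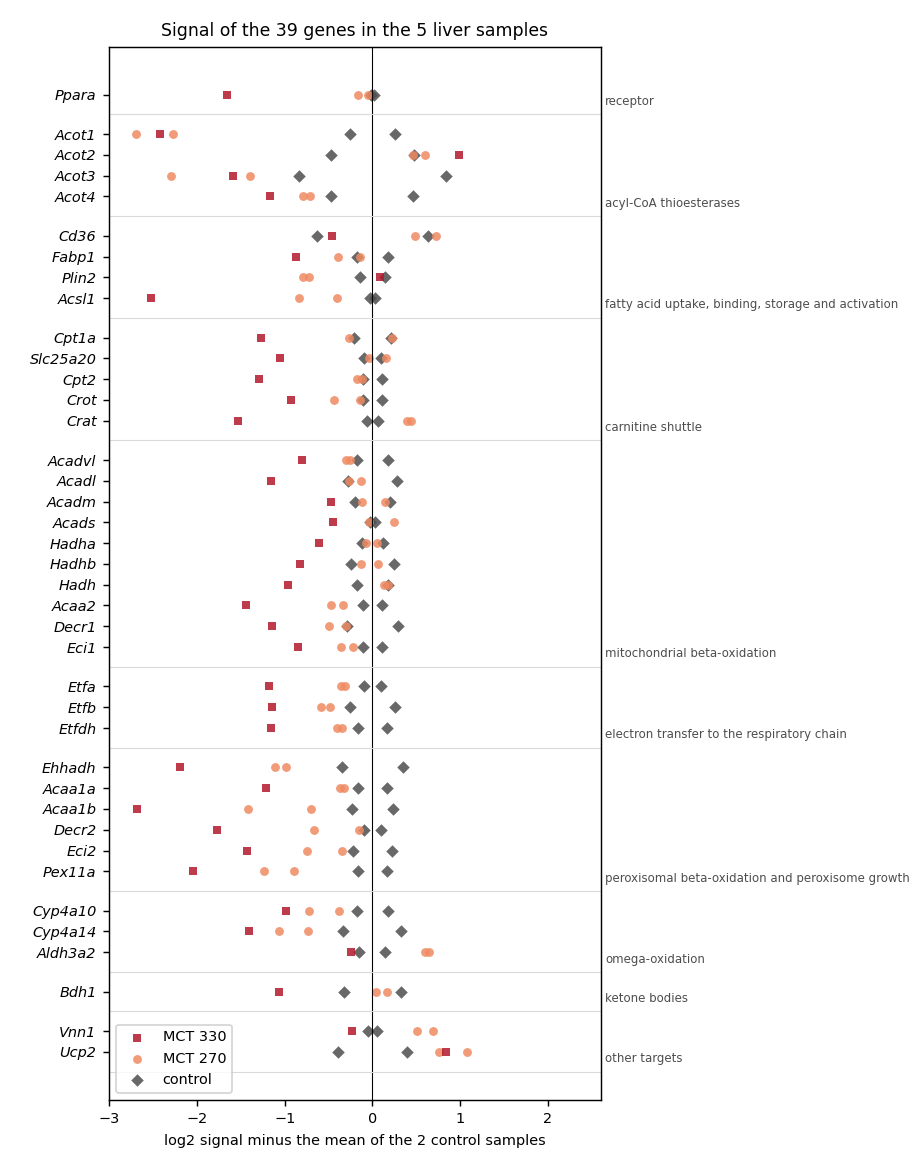
Log2 signal of each of the 39 genes (rows, grouped by role) in the 5 samples, minus the mean of the 2 control samples; squares are MCT 330, circles MCT 270 and diamonds control. The MCT 330 square lies left of both control diamonds for 35 genes, and Acot1 is the gene with both MCT 270 circles farthest to the left.

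Levels below are log2 signals relative to the 75th percentile of the array, and fold changes are log2 values with their SE (n = 1 MCT 330, 2 MCT 270 and 2 control samples). The receptor gene Ppara had a log2 signal of 2.92 in the MCT 330 sample and of 4.52 and 4.41 in the MCT 270 samples, against 4.56 and 4.59 in the control samples. Its MCT 330 sample stood apart below the other 4, with a log2 fold change of -1.66 ± 0.19 against control (adjusted p = 0.00934) and of -1.55 ± 0.19 against MCT 270 (adjusted p = 0.0205). Against control, MCT 270 differed by -0.11 ± 0.15 (adjusted p = 0.738). The 3 probes of Ppara disagreed on the size. The brightest, used for these values, is joined by one with log2 signals of 0.06 in the MCT 330 sample and 1.41 and 1.47 in the MCT 270 samples, against 2.98 and 2.98 in the control samples. That probe gave log2 fold changes of -2.92 at MCT 330 and -1.54 at MCT 270. The third gave -0.72 at MCT 330 and -0.35 at MCT 270. At MCT 330 the sign was the same on all 3, and at MCT 270 the value depended on the probe.

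**Figure D2:**
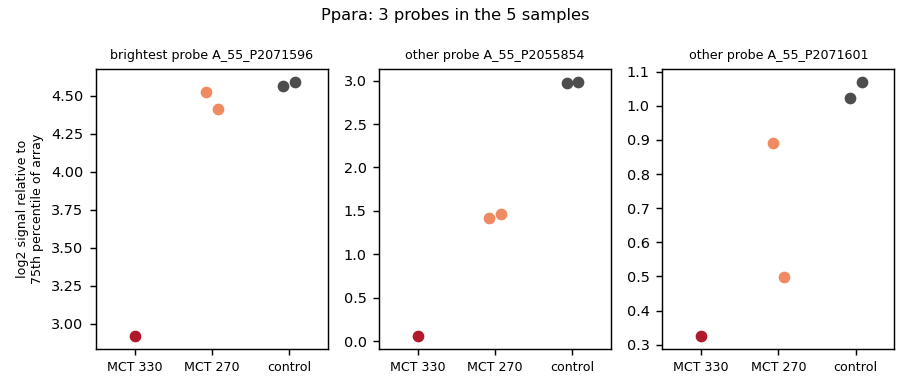
Log2 signal relative to the 75th percentile of the array (y) of the 3 Ppara probes in each sample (x, MCT 330, MCT 270, control; each point 1 sample, each panel with its own scale). MCT 330 is lowest on every probe, while the 2 MCT 270 points sit near control on the brightest probe (-0.11) and well below it on the second (-1.54).

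Among genes of uptake, binding, storage and activation, 1 of 4 passed at MCT 330. Acsl1, the main long-chain acyl-CoA synthetase of hepatocytes, had a log2 signal of 3.95 in the MCT 330 sample and of 6.08 and 5.64 in the MCT 270 samples, against 6.45 and 6.51 in the control samples. The MCT 330 sample was lowest and the groups did not overlap. Acsl1 fell by 2.53 on the log2 scale (SE 0.25), or 5.76-fold, at MCT 330 (adjusted p = 0.00869), and its second probe differed by -2.80. Plin2, which coats lipid droplets, behaved otherwise. Its log2 signal was 5.17 in the MCT 330 sample and 4.29 and 4.37 in the MCT 270 samples, against 4.94 and 5.23 in the control samples. Both MCT 270 samples lay below all others, with a log2 fold change of -0.76 ± 0.18 against control (adjusted p = 0.145), and MCT 330 differed from control by 0.09 ± 0.22 (adjusted p = 0.776). Between the doses the difference was 0.84 ± 0.22 (adjusted p = 0.0556), and Plin2 was called there under some alternatives, such as quantile normalization, normexp and leaving out control replicate 1. Cd36, a fatty acid receptor at the cell surface, had log2 signals of 0.99 in the MCT 330 sample and 1.94 and 2.17 in the MCT 270 samples, against 0.82 and 2.08 in the control samples, so that its groups overlapped. Fabp1, the liver fatty acid binding protein, differed from control by -0.87 ± 0.25 at MCT 330 (adjusted p = 0.056) and by -0.27 ± 0.21 at MCT 270.

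The acyl-CoA thioesterases held the largest difference at the lower dose. Acot1, the cytosolic long-chain thioesterase and a known PPAR-alpha target, had log2 signals of 1.78 in the MCT 330 sample and 1.93 and 1.51 in the MCT 270 samples, against 3.95 and 4.45 in the control samples. The MCT 330 value lay between the MCT 270 values, and all 3 lay below control. The log2 fold change was -2.42 ± 0.32 at MCT 330 (adjusted p = 0.0113), a call, and -2.48 ± 0.26 at MCT 270 (adjusted p = 0.0809), which missed the threshold, and the doses differed by 0.06 ± 0.32 (adjusted p = 0.91). Acot3, a peroxisomal thioesterase, had log2 signals of -0.74 in the MCT 330 sample and -0.55 and -1.44 in the MCT 270 samples, against 0.01 and 1.69 in the control samples. The 2 control samples of Acot3 stood about as far apart as the groups, and its log2 fold changes of -1.59 ± 0.78 at MCT 330 and -1.85 ± 0.64 at MCT 270 did not pass. Between the doses its probes gave opposite signs (0.25 and -0.72). Acot4, the peroxisomal thioesterase of dicarboxylic acyl-CoA, had log2 signals of -0.89 in the MCT 330 sample and -0.52 and -0.44 in the MCT 270 samples, against -0.19 and 0.75 in the control samples. Its differences from control, -1.17 ± 0.42 at MCT 330 and -0.76 ± 0.34 at MCT 270, did not pass, and the MCT 270 value was -1.22 without control replicate 1 and -0.29 without control replicates 2 and 3. Acot2, the mitochondrial thioesterase, differed by 0.99 ± 0.42 at MCT 330 (adjusted p = 0.136) on a dim probe that was above background on 8 of 9 arrays. The Acot genes are close copies of one another, like Acaa1a and Acaa1b or the Cyp4a genes, and whether their probes share signal was not tested.

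**Figure D3:**
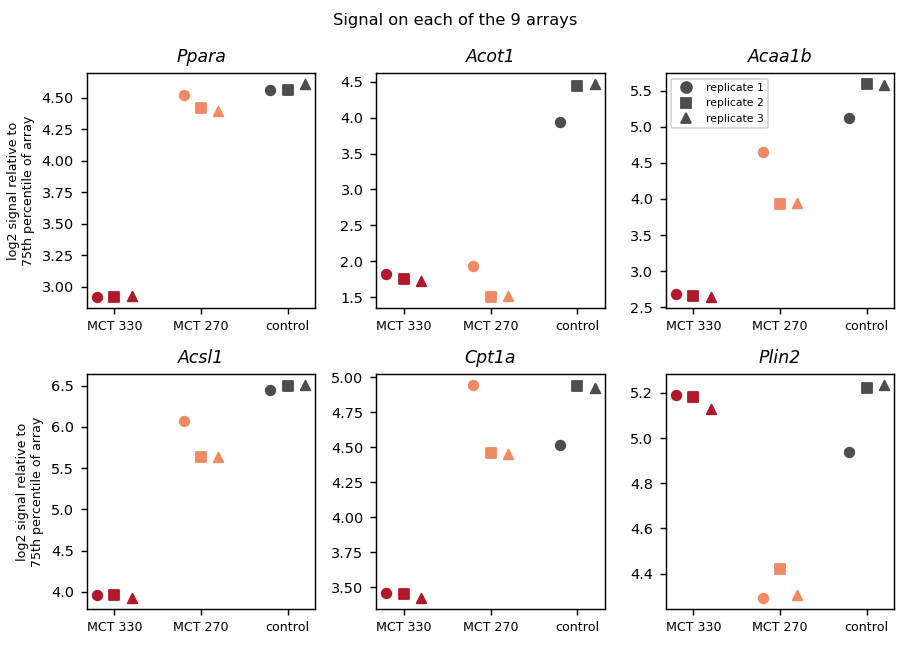
Log2 signal relative to the 75th percentile of the array (y) on each of the 9 arrays for 6 genes, by group (x, MCT 330, MCT 270, control); marker shapes are replicates 1, 2 and 3, and replicates 2 and 3 are scans of 1 array. Acot1 is low in both dosed groups, Ppara, Acsl1 and Cpt1a are lowest at MCT 330, and Plin2 is lowest at MCT 270.

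All 5 genes of the carnitine shuttle fell at MCT 330, by log2 values between -1.53 and -0.93, while none passed at MCT 270. Cpt1a, the rate-limiting outer membrane transferase, had log2 signals of 3.45 in the MCT 330 sample and 4.95 and 4.45 in the MCT 270 samples, against 4.51 and 4.93 in the control samples. The MCT 270 and control samples overlapped and the MCT 330 sample lay below them, with a log2 fold change of -1.27 ± 0.32 (adjusted p = 0.0389). A second, dimmer Cpt1a probe gave -0.84 at MCT 330 and 0.39 at MCT 270. Slc25a20, the carnitine-acylcarnitine translocase, had log2 signals of 0.57 in the MCT 330 sample and 1.78 and 1.58 in the MCT 270 samples, against 1.53 and 1.71 in the control samples, and its log2 fold change at MCT 330 was -1.06 ± 0.21 (adjusted p = 0.0244). Cpt2, the inner membrane transferase, had log2 signals of 3.33 in the MCT 330 sample and 4.50 and 4.45 in the MCT 270 samples, against 4.52 and 4.72 in the control samples. Its log2 fold change was -1.29 ± 0.20 (adjusted p = 0.0145), but a second, dimmer probe gave -0.16 and the mean over both -0.72. Crot, the peroxisomal carnitine octanoyltransferase, had log2 signals of 5.10 in the MCT 330 sample and 5.88 and 5.58 in the MCT 270 samples, against 5.92 and 6.14 in the control samples. Its log2 fold change at MCT 330 was -0.93 ± 0.24 (adjusted p = 0.0417), a call lost in 8 of 20 alternatives, with -0.56 under quantile normalization and -0.61 with normexp. Crat, the carnitine acetyltransferase, had log2 signals of -5.46 in the MCT 330 sample and -3.50 and -3.54 in the MCT 270 samples, against -3.87 and -4.00 in the control samples. Its probe was dim, above background on 2 of 3 MCT 330 arrays, and the MCT 330 arrays of Crat differed more between themselves than for any other of the 39 genes (-0.63); its log2 fold change was -1.53 ± 0.19 (adjusted p = 0.0104). The probe was tested because it was above background in MCT 270 and control, where it is higher. With normexp this became -0.30 and did not pass (adjusted p = 0.0846).

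In mitochondrial beta-oxidation 5 of 10 genes fell at MCT 330, and the median log2 fold change over the 10 was -0.84. Acaa2, the mitochondrial thiolase, had log2 signals of 5.86 in the MCT 330 sample and 6.97 and 6.82 in the MCT 270 samples, against 7.19 and 7.40 in the control samples. Its groups lay in the order of dose, with a log2 fold change of -1.44 ± 0.21 at MCT 330 (adjusted p = 0.013) and -0.40 ± 0.17 at MCT 270 (adjusted p = 0.306). Acadl, the long-chain acyl-CoA dehydrogenase, had log2 signals of 2.54 in the MCT 330 sample and 3.58 and 3.43 in the MCT 270 samples, against 3.42 and 3.99 in the control samples, and its log2 fold change at MCT 330 was -1.16 ± 0.30 (adjusted p = 0.0419). Its spot was flagged on MCT 330 replicate 1, so this value rests on the other array. Decr1, the mitochondrial dienoyl-CoA reductase, had log2 signals of 4.13 in the MCT 330 sample and 4.97 and 4.78 in the MCT 270 samples, against 4.98 and 5.57 in the control samples, and its log2 fold change at MCT 330 was -1.14 ± 0.31 (adjusted p = 0.0467). A second, dimmer Decr1 probe gave -1.71 at MCT 330, and -1.58 between the doses where the first gave -0.74. Hadh, which oxidises short and medium hydroxyacyl-CoA, had log2 signals of 2.87 in the MCT 330 sample and 3.97 and 4.01 in the MCT 270 samples, against 3.66 and 4.01 in the control samples, and its log2 fold change at MCT 330 was -0.96 ± 0.23 (adjusted p = 0.0362). Eci1, the mitochondrial enoyl-CoA isomerase, had log2 signals of 4.00 in the MCT 330 sample and 4.62 and 4.49 in the MCT 270 samples, against 4.74 and 4.95 in the control samples, and its log2 fold change at MCT 330 was -0.85 ± 0.21 (adjusted p = 0.0376). Quantile normalization gave -0.54 for Eci1, which then did not pass. For these 4 genes the MCT 330 sample lay below the other 4 samples. At MCT 270, Decr1 and Eci1 lay below both control samples, in the order of dose as for Acaa2, while Acadl and Hadh overlapped control.

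The other 5 genes of this group did not pass at MCT 330, although the MCT 330 sample lay below both control samples for each. Hadha, the alpha subunit of the trifunctional protein, had log2 signals of 0.38 in the MCT 330 sample and 1.04 and 0.91 in the MCT 270 samples, against 0.86 and 1.11 in the control samples. Hadhb, its beta subunit, had log2 signals of 4.38 in the MCT 330 sample and 5.28 and 5.07 in the MCT 270 samples, against 4.96 and 5.46 in the control samples. Their log2 fold changes at MCT 330 were -0.61 ± 0.21 for Hadha (adjusted p = 0.0876) and -0.82 ± 0.28 for Hadhb (adjusted p = 0.0825). At MCT 270 they were -0.01 for Hadha and -0.03 for Hadhb. Acadm, the medium-chain dehydrogenase, had log2 signals of 4.53 in the MCT 330 sample and 5.14 and 4.88 in the MCT 270 samples, against 4.80 and 5.20 in the control samples. Acads, the short-chain dehydrogenase, had log2 signals of -0.25 in the MCT 330 sample and 0.15 and 0.44 in the MCT 270 samples, against 0.22 and 0.16 in the control samples. Differences of Acadm and Acads from control were small at MCT 330, at -0.48 ± 0.27 and -0.44 ± 0.22. Acadvl, the very-long-chain dehydrogenase, differed by -0.80 ± 0.23 (adjusted p = 0.0565).

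The electron transfer genes moved alike at MCT 330. Etfa, the alpha subunit of the electron transfer flavoprotein, had log2 signals of 5.36 in the MCT 330 sample and 6.23 and 6.18 in the MCT 270 samples, against 6.45 and 6.64 in the control samples. Etfb, the beta subunit, had log2 signals of 5.78 in the MCT 330 sample and 6.44 and 6.33 in the MCT 270 samples, against 6.67 and 7.18 in the control samples. Etfdh, the dehydrogenase that passes the electrons to ubiquinone, had log2 signals of 4.16 in the MCT 330 sample and 4.97 and 4.91 in the MCT 270 samples, against 5.15 and 5.47 in the control samples. For all 3 genes the MCT 330 sample was lowest, the MCT 270 samples came next and no groups overlapped. Their log2 fold changes at MCT 330 were -1.18 ± 0.20 for Etfa (adjusted p = 0.0168), -1.14 ± 0.28 for Etfb (adjusted p = 0.0363) and -1.15 ± 0.23 for Etfdh (adjusted p = 0.0227). At MCT 270 they lay between -0.54 and -0.34 and did not pass. Etfb stood at -0.76 at MCT 330 under quantile normalization and still passed. A second Etfa probe gave -0.58 at MCT 330 and 0.19 at MCT 270.

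Of the peroxisomal genes 6 of 6 fell at MCT 330, with a median log2 fold change of -1.91. Acaa1b, a peroxisomal thiolase, had log2 signals of 2.67 in the MCT 330 sample and 4.65 and 3.94 in the MCT 270 samples, against 5.12 and 5.59 in the control samples. Its fall of 6.43-fold at MCT 330, a log2 fold change of -2.69 ± 0.39 (adjusted p = 0.0128), was the largest of the 39 genes. Its copy Acaa1a had log2 signals of 4.15 in the MCT 330 sample and 5.03 and 4.98 in the MCT 270 samples, against 5.19 and 5.52 in the control samples, and its log2 fold change at MCT 330 was -1.21 ± 0.23 (adjusted p = 0.0207). Ehhadh, the peroxisomal bifunctional enzyme, had log2 signals of 2.79 in the MCT 330 sample and 4.00 and 3.87 in the MCT 270 samples, against 4.64 and 5.33 in the control samples. Its log2 fold change at MCT 330 was -2.19 ± 0.34, or 4.57-fold (adjusted p = 0.014). Pex11a, which drives peroxisome division, had log2 signals of 0.38 in the MCT 330 sample and 1.53 and 1.19 in the MCT 270 samples, against 2.26 and 2.59 in the control samples, and its log2 fold change at MCT 330 was -2.04 ± 0.26 (adjusted p = 0.0108).

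Decr2, the peroxisomal dienoyl-CoA reductase, had log2 signals of 1.17 in the MCT 330 sample and 2.79 and 2.27 in the MCT 270 samples, against 2.84 and 3.04 in the control samples, and its log2 fold change at MCT 330 was -1.77 ± 0.29 (adjusted p = 0.0156). Eci2, an enoyl-CoA isomerase, had log2 signals of 4.05 in the MCT 330 sample and 5.14 and 4.74 in the MCT 270 samples, against 5.27 and 5.71 in the control samples, and its log2 fold change at MCT 330 was -1.43 ± 0.30 (adjusted p = 0.0265). In all 6 genes both MCT 270 samples lay below both control samples and above the MCT 330 sample.

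Of the omega-oxidation genes, Cyp4a10 and Cyp4a14, fatty acid omega-hydroxylases, fell at MCT 330. Cyp4a10 had log2 signals of 7.32 in the MCT 330 sample and 7.92 and 7.58 in the MCT 270 samples, against 8.12 and 8.48 in the control samples, and its log2 fold change at MCT 330 was -0.98 ± 0.27 (adjusted p = 0.0494). That call lay at the threshold and was lost in 9 of 20 alternatives, among them quantile normalization (-0.57), although all 3 probes of Cyp4a10 were lower, by -0.98 to -1.30. Cyp4a14 had log2 signals of 5.51 in the MCT 330 sample and 6.19 and 5.85 in the MCT 270 samples, against 6.59 and 7.25 in the control samples, and its log2 fold change at MCT 330 was -1.41 ± 0.35 (adjusted p = 0.0386). Aldh3a2, the fatty aldehyde dehydrogenase, took another course, with log2 signals of -0.01 in the MCT 330 sample and 0.88 and 0.84 in the MCT 270 samples, against 0.09 and 0.39 in the control samples. Its MCT 270 samples were the highest, with a log2 fold change of 0.62 ± 0.18 that did not pass (adjusted p = 0.189).

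Bdh1, which makes the ketone body beta-hydroxybutyrate, differed from control by -1.06 ± 0.32 at MCT 330 (adjusted p = 0.063) and by 0.10 ± 0.26 at MCT 270. Vnn1, a pantetheinase and PPAR-alpha target, had log2 signals of 1.57 in the MCT 330 sample and 2.49 and 2.31 in the MCT 270 samples, against 1.76 and 1.85 in the control samples. Ucp2, a mitochondrial carrier, had log2 signals of -0.65 in the MCT 330 sample and -0.41 and -0.72 in the MCT 270 samples, against -1.10 and -1.88 in the control samples. Ucp2 and Vnn1 were above control at MCT 270, by 0.92 ± 0.31 and 0.60 ± 0.16, and neither passed (adjusted p = 0.232 and 0.178). Between the doses Vnn1 differed by -0.83 ± 0.20, a call (adjusted p = 0.0492) that was lost in 11 of 20 alternatives.

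**Figure D4:**
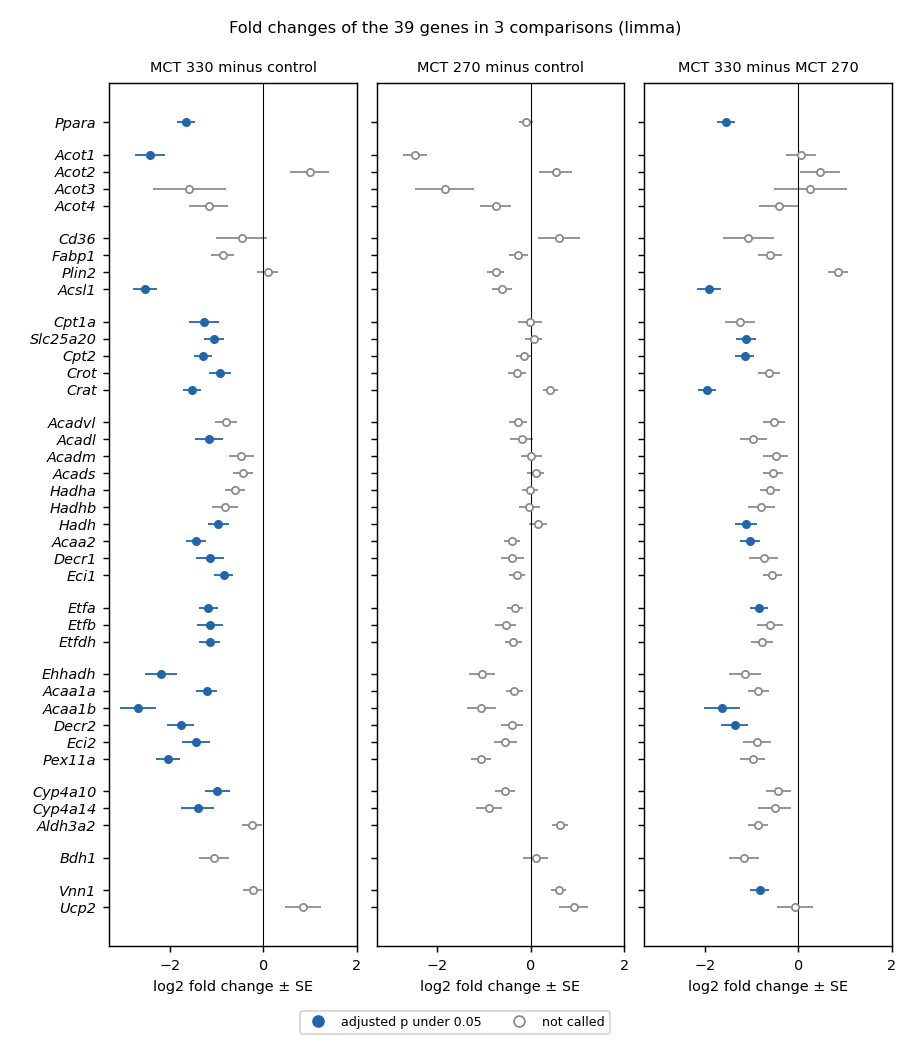
Log2 fold change with its SE (x) of each of the 39 genes (rows) for MCT 330 minus control, MCT 270 minus control and MCT 330 minus MCT 270; filled points passed an adjusted p under 0.05. There are 24 filled points in the first panel, 0 in the second and 11 in the third, all left of 0.

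The second comparison asks how the genes stood at the lower dose. At MCT 270 none of the 39 genes passed the test by limma, and neither did any of the 24808 genes (0.0%). At an unadjusted p under 0.05, 8 genes were lower and 4 higher, against 8.79% and 9.81% of all genes. Acot1 alone was called lower with normexp, where 1.21% of all genes were. Where MCT 330 replicate 1 was kept as a separate sample, Acot1, Plin2 and Pex11a were called lower, 3 of 38 genes against 3.45% of all genes and with no member called higher. The median log2 fold change was -0.29, against -0.02 over all genes, and became -0.12 under quantile normalization. In all, 23 of the 39 genes had both MCT 270 samples below both control samples, against 27.5% of all genes, and 4 had both above, against 25.4%. After Acot1 and Acot3, the largest values were those of Pex11a (-1.06 ± 0.22, adjusted p = 0.124), Acaa1b (-1.06 ± 0.32, adjusted p = 0.197) and Ehhadh (-1.05 ± 0.27, adjusted p = 0.164). The peroxisomal genes had a median of -0.80, and the carnitine shuttle one of -0.02. At the other end, Acadm (0.01), Hadha (-0.01), Cpt1a (-0.02, on its brighter probe), Hadhb (-0.03) and Slc25a20 (0.06) differed least from control. Within the scan that held 2 arrays of each group, 28 of 39 genes were below control, with 52.2% of all genes, and within the scan that held 1 of each it was 31, with 52.1%. Acot1 differed by -2.47 in the first and by -2.96 in the second. The second scan held rescans of arrays that are also in the first, so it repeats samples and adds no separate mice. The 2 control samples were not alike for these genes: sample 2 exceeded sample 1 in 36 of 39, by a median of 0.35, against 48.7% of all genes with a median of -0.01. The 2 MCT 270 samples differed too, with sample 2 below sample 1 in 32 of 39 genes, against 52.4% of all genes.

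**Figure D5:**
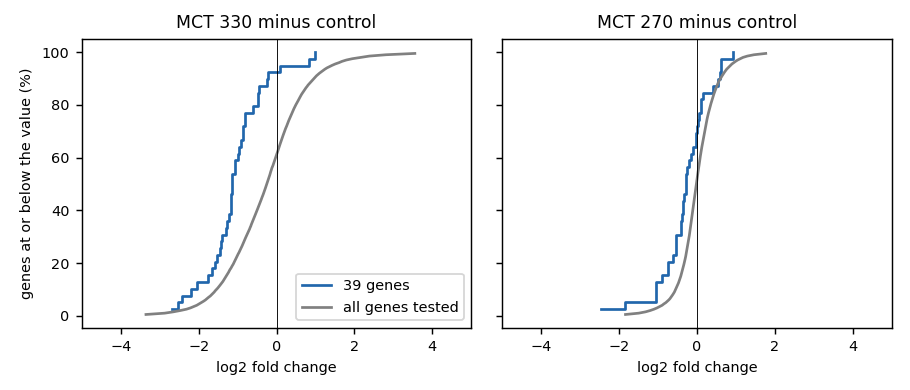
Share of genes at or below a log2 fold change (y, percent; x, log2 fold change) for the 39 genes (blue) and all genes tested (grey), at MCT 330 and at MCT 270 against control. The medians are -1.14 for the 39 genes and -0.25 for all genes at MCT 330, and -0.29 and -0.02 at MCT 270.

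The third comparison sets the doses against each other. Between MCT 330 and MCT 270, 11 of the 39 genes (28.2%) were lower at MCT 330 and none was higher, against 17.0% and 4.96% of all genes. Under quantile normalization 8 were lower and Plin2 was higher, against 9.68% and 6.0% of all genes. With normexp 19 were lower and Plin2 was higher, against 8.28% and 7.91%. The median difference was -0.83, against -0.23 over all genes, and the MCT 330 sample lay below both MCT 270 samples for 34 genes, against 55.9% of all genes. The 11 genes were Ppara, Acsl1, Slc25a20, Cpt2, Crat, Hadh, Acaa2, Etfa, Acaa1b, Decr2 and Vnn1. Acsl1 differed by -1.91 ± 0.25 (adjusted p = 0.0208) and Acaa1b by -1.63 ± 0.39 (adjusted p = 0.0464). Crat, dim in the MCT 330 sample, gave -1.95 ± 0.19 (adjusted p = 0.0205) but -0.49 with normexp, so that its size is uncertain. When either MCT 270 sample was dropped (replicate 1, or replicates 2 and 3), none of the 11 was called and neither was any other gene on the array. Without control replicate 1, 19 were lower (22.1% of all genes) and Plin2 was higher (6.44%). For 20 of the 39 genes the MCT 330 sample lay below both MCT 270 samples and these below both control samples, against 16.9% of all genes. These comparisons share samples with each other.

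Other genes of the pathway were lower at MCT 330 too. Of 75 tested genes of fatty acid oxidation and PPAR-alpha response outside the 39, 37 (49.3%, where 23.9% of all genes were) were lower and 1 higher at MCT 330 against control, with a median log2 fold change of -1.08 against -0.25 over all genes, and none was called at MCT 270. The mitochondrial coenzyme A carrier Slc25a42 (-2.47 ± 0.22) and the fatty acid transporter Slc27a2 (-2.31 ± 0.25) fell at MCT 330. Acot9, a mitochondrial thioesterase, was the gene that rose, by 3.02 ± 0.26 (adjusted p = 0.00869). At MCT 270 small p-values were those of Txnip (-1.40), Acacb (-1.57) and Acot9 (1.45), none of which passed.

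Among 29 partners, coactivators and related regulators, 9 were lower at MCT 330 (31.0%, where 23.9% of all genes were) and none higher, with a median of -0.42 against -0.25 over all genes. The smallest p-values belonged to Ppargc1b, a coactivator of mitochondrial genes, with a log2 fold change of -3.13 ± 0.30 (adjusted p = 0.00869), and to the mitochondrial deacetylase Sirt3, with -1.51 ± 0.23 (adjusted p = 0.0143). The transcription factor Klf15 (-1.25 ± 0.20, adjusted p = 0.0149) and the coactivator Ncoa1 (-1.14 ± 0.19, adjusted p = 0.0155) came next. Ppargc1b was dim in the MCT 330 sample, at a log2 signal of -5.52, although above background on all 3 arrays there, so its size is uncertain. At MCT 270 Nr1d2 (1.03), Ncoa3 (-0.74), Ncoa1 (-0.70) and Hnf4a (-0.57) had the smallest p-values and did not pass. Ncoa3 (-1.045, adjusted p = 0.0202) and Hnf4a (-1.05, adjusted p = 0.0259) were among the 9 called lower at MCT 330, and Nr1d2 (0.27) was not called there.

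Markers of other cell types moved at MCT 330 beside these genes. Over all genes tested, 23.9% were called lower and 9.46% higher at MCT 330 against control. Of 9 tested hepatocyte markers 1 was lower at MCT 330, and their summed linear signal, as a multiple of the 75th percentile of the array, was 2509 in the MCT 330 sample and 2932 and 2413 in the MCT 270 samples, against 2664 and 3000 in the control samples. Over the 39 genes that sum was 845 in the MCT 330 sample and 1478 and 1270 in the MCT 270 samples, against 1627 and 2089 in the control samples. It is weighted to the brightest of the 39, such as Cyp4a10, with log2 signals of 8.12 and 8.48 in control. Neutrophil markers rose for 6 of 9 genes, with sums of 41.0 at MCT 330 and 8.44 and 9.31 at MCT 270, against 8.83 and 11.8 in control. In MCT 270 and control those sums are mostly Csf3r, the brightest of the 9 there, with log2 signals of 3.02 and 3.41 in control. Csf3r (-0.29) and Camp (-0.82) were lower at MCT 330 and were not called. Markers of recruited monocytes and macrophages rose for 7 of 10, with sums of 19.9 at MCT 330 and 6.51 and 7.58 at MCT 270, against 7.43 and 4.65 in control. Sinusoidal endothelial markers fell for 9 of 10, with sums of 9.51 at MCT 330 and 17.0 and 14.2 at MCT 270, against 38.8 and 37.6 in control. Kupffer cell markers fell for 4 of 8 and stellate cell markers for 6 of 8, while 1 of 8 stellate and 1 of 5 cholangiocyte markers rose and none of 5 adipocyte markers was called. Marco was the 1 Kupffer cell marker of 8 above control, by 0.61 at MCT 330 and 0.74 at MCT 270, and was not called. Of the markers that rose, Cxcr2, Mmp8 and Mmp9 of neutrophils, Clec4e and Gpnmb of monocytes and macrophages, and Krt7 of cholangiocytes were above background on no control array, and were tested because of arrays of dosed mice. The part of these cell types in the differences of the 39 genes was not tested.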

How the data were processed

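Liver mRNA was measured on 9 single-colour arrays, and each deposited value is a spot intensity that the authors took from Agilent Feature Extraction (version 11.0.1.1 in the file headers), with background already subtracted. The deposited miRNA table was not used here. From that processed intensity, log2 signal minus the 75th percentile of each array was computed, and control and flagged spots were left out. Repeated spots were averaged. A probe was tested if it stood well above background throughout 1 group or more, and the brightest such probe stood for its gene. Of 39429 probes, 27234 were named through RefSeq.

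Scans of 1 array were averaged first, then arrays of 1 sample, which left 5 samples. The noise limit written for joining arrays was a ratio of 1. MCT 330 replicate 1 exceeded it in a brightness class and was joined by its median ratio, so a fit with 6 samples was added as an alternative after the data were seen. Earlier work on these files left out some spots of that array by a vote among the 3 arrays, which was not done because the other 2 are scans of 1 array. A single limma fit (version 3.58.1, lmFit and eBayes, R 4.3.3) compared the 3 groups, Benjamini-Hochberg adjusted, threshold 0.05. The fit was tested on simulated data. The p-values measure only the spread between these samples, which the labels describe as separate mice, and few arrays mean limited precision.

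The genes and lists were chosen with earlier results of these data known, so nothing here is independent support for them. Values per sample are given for each gene that passed in any comparison and for the 5 largest and 5 smallest log2 fold changes per dose. Of the other lists, the 4 genes with the smallest p per dose are named, except 1 that is not reported here. Peci was listed but not tested. Alternatives were quantile normalization, normexp (offset 50) followed by quantile normalization, no filter on dim probes, the mean over probes, the 9 arrays as samples with and without a block, a fold of at least 2, and leaving out each array or sample.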

Additional observations from a re-analysis of the deposited data

Results flagged for a closer look

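Slc25a20, Crat, Hadh and Vnn1 were picked out because the test between the doses passed while the log2 fold changes against control had opposite signs. Between MCT 330 and MCT 270 the log2 fold change was -1.11 for Slc25a20, -1.95 for Crat, -1.12 for Hadh and -0.83 for Vnn1. Against control, Crat stood at -1.53 at MCT 330 and 0.41 at MCT 270, and Vnn1 at -0.23 at MCT 330 and 0.60 at MCT 270. Hadh stood at -0.96 at MCT 330 and 0.15 at MCT 270, and Slc25a20 at -1.06 at MCT 330 and 0.06 at MCT 270. None of the 4 values at MCT 270 passed the test against control, so the opposite sign itself was not established for any of them. The difference between the doses rests on 1 MCT 330 sample, whose scans were separate, and Crat was dim there, with -0.49 between the doses under normexp. The call for Vnn1 between the doses was lost in 11 of 20 alternatives.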

How the results depend on the processing

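Of 2325 values of single genes under the alternatives, no call changed sign, and 36 values near 0 changed sign without passing in either setting. Shares in brackets are those of all genes called in the same setting. At MCT 330 against control, 24 calls (33.3%) became 10 (11.1%) without the filter on dim probes, where more genes were tested, and 9 to 31 with 1 replicate or sample left out. Quantile normalization gave 18, normexp 26, and a fold of at least 2 gave 20. At MCT 270 against control, 0 calls became 1 with normexp (2.08%) and 3 with 6 samples (6.97%), and 0 with any replicate left out. Between MCT 330 and MCT 270, 11 calls (21.9%) became 0 without the filter (0.0%), 20 with normexp (19 lower and Plin2 higher; 16.2%) and 28 with 6 samples (27 lower and Plin2 higher; 45.3%), and 0 to 20 with 1 replicate or sample left out.

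Taking the 9 arrays as separate samples gave 25 calls at MCT 270 (22 lower and 3 higher; 38.5%), 36 at MCT 330 (34 lower and 2 higher; 72.9%) and 32 between the doses (31 lower and 1 higher; 65.1%), but this counts scans of 1 array as mice. The genes called higher were Aldh3a2, Ucp2 and Vnn1 at MCT 270, Acot2 and Ucp2 at MCT 330, and Plin2 between the doses. With scan as a random block the counts were 25 (35.9%), 36 (75.8%) and 33 (68.6%). The labels number different mice 1 to 3 in each group, so a shared number gives no pairing by design, and deviations of same-numbered arrays from their group means correlated at -0.034 to 0.0425 across groups. With the replicate number as a block over the 9 arrays there were 22 calls at MCT 270 (37.6%), 36 at MCT 330 (72.3%) and 31 between the doses (64.4%), with the same genes called higher.

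For the 104 other genes of the pathway and regulators, 0 calls at MCT 270 became 12 with 6 samples and 59 with 9 arrays. The 47 at MCT 330 became 89 with 9 arrays, and the 22 between the doses became 63 with 6 samples and 80 with 9 arrays, against the shares of all genes given above for these settings. Signal limits Acot2 and Crat, whose probes were above background on 8 of 9 arrays, and the sizes for genes such as Ppara, Cpt2, Cpt1a, Decr1, Acot3 and Etfa depended on the probe.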

Other observations

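The genes outside the 39 described here were chosen after their values were seen. Pdk4, a kinase that switches fuel use from glucose to fat, had log2 signals of 2.15 in the MCT 330 sample and -1.66 and -1.74 in the MCT 270 samples, against -0.12 and 1.32 in the control samples. It rose between the doses, by a log2 fold change of 3.84 ± 0.60 for MCT 330 against MCT 270 (adjusted p = 0.0237), while neither dose passed against control (1.54 ± 0.60 and -2.30 ± 0.49). Its control samples stood far apart. Fgf21, a liver hormone of fasting, had log2 signals of -3.69 in the MCT 330 sample and -5.57 and -5.42 in the MCT 270 samples, against -2.59 and 0.29 in the control samples. All dosed samples of Fgf21 lay below control and none of its comparisons passed. Fgf21 was dim in MCT 270, above background on 2 of the 3 arrays.

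Acat1, a mitochondrial acetoacetyl-CoA thiolase of ketone body synthesis, fell at MCT 330. It had log2 signals of 3.15 in the MCT 330 sample and 4.77 and 4.64 in the MCT 270 samples, against 4.72 and 5.12 in the control samples, a log2 fold change of -1.77 ± 0.25 at MCT 330 (adjusted p = 0.0121). Cidec, a lipid droplet protein, had log2 signals of 2.02 in the MCT 330 sample and 0.85 and 0.52 in the MCT 270 samples, against -0.89 and 0.65 in the control samples, and did not pass (2.14 ± 0.66, adjusted p = 0.0639). Rxra, the partner of the receptor, had log2 signals of -1.26 in the MCT 330 sample and -0.33 and -0.32 in the MCT 270 samples, against -0.23 and -0.02 in the control samples, and it fell at MCT 330 (-1.13 ± 0.20, adjusted p = 0.0188).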
